A study of Bos taurus with 9 samples.

Results

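The genes described here encode the nuclear part of the mitochondrial respiratory chain and of ATP synthase in bovine blastocysts. They were chosen by symbol: names that begin with NDUF, UQCR, COX4 to COX8 or ATP5, the 4 SDH genes and CYC1. The rule found 93 of the 22127 genes of the deposited table, 45 for complex I, 4 for complex II, 9 for complex III, 17 for complex IV and 18 for complex V. NDUFA4 and NDUFA4L2 were counted with complex IV, where the NDUFA4 protein sits. COX6C and COX7C, for which no row carried the symbol, were not analysed here.

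RNA sequencing had measured 9 libraries of day 8 blastocysts, 3 for each of 3 media in which the oocyte, inside its cumulus cells, had been matured for 24 hours. The labels call them low glucose + BHB, with glucose at 2.75 mM and BHB at 1.8 mM, low glucose, with glucose at 2.75 mM, and control, with glucose at 5.5 mM. BHB is not spelled out there and is read here as beta-hydroxybutyrate, a ketone body. Fertilisation in vitro and culture to day 8 followed 1 protocol for all groups, so the media differed only before fertilisation. Each library was a pool of 9 to 11 embryos, so differences between single embryos cannot be seen. Whether the replicates came from separate cultures is not stated, so a p-value here measures only how far these 9 samples spread, and that spread may be technical. In such bulk samples, fewer cells of a type and less RNA per cell cannot be told apart.

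The respiratory chain passes electrons from NADH and succinate to oxygen and pumps protons across the inner mitochondrial membrane, and ATP synthase uses the returning protons to make ATP. Complex I takes electrons from NADH and complex II from succinate, complex III hands them to cytochrome c, complex IV reduces oxygen and complex V is the synthase. Most subunits are encoded in the nucleus and imported, while a small core of complexes I, III, IV and V is encoded in mitochondrial DNA. In mammalian embryos, oxidative phosphorylation supplies ATP through cleavage, and the trophectoderm of the blastocyst is known for active mitochondria.

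Total estimated counts ran from 55611205 to 75178898 per library. Trophectoderm markers were abundant in every library, with a summed level of 13147 to 19907 CPM, counts scaled to a common library size, while 8 striated muscle markers summed to 39.4 to 56.3 CPM and 10 germ cell markers to 12.8 to 25.1 CPM. Of 22 tested cumulus and granulosa genes, 6 were lower in low glucose than in control and 6 were lower with BHB than in control (edgeR, adjusted p under 0.05). NR5A1, NR5A2, VCAN, LUM and DCN were among both sets. LUM and DCN passed under all 18 alternatives in both comparisons, while NR5A2 passed under 14 with BHB, COL3A1 under 13 with BHB and GREM1 under 12 in low glucose. Without PTGS2, the most abundant of the 23 listed genes, the list summed to 418, 416 and 280 CPM with BHB, 485, 346 and 359 CPM in low glucose and 1165, 731 and 662 CPM in control, with control wholly above the other media. PTGS2, singled out after its values were seen, had 464, 928 and 606 CPM with BHB, 1011, 657 and 414 CPM in low glucose and 355, 544 and 454 CPM in control. With PTGS2 the sums overlapped, at 883, 1344 and 886 CPM with BHB, 1496, 1003 and 773 CPM in low glucose and 1520, 1275 and 1116 CPM in control. Of 8 hypoblast markers 5 had a log2 fold change above 0 in each comparison against control, with medians of 0.02 with BHB and 0.10 in low glucose. GATA4 alone of the 8 passed the test, lower in both comparisons. In low glucose that call held under all 18 alternatives, and with BHB under 11, with an adjusted p of up to 0.219 (edgeR). With BHB it was lost in the fit of 6 libraries and without BHB replicate 1 or 3, low glucose replicate 3 or any control library. Of 7 epiblast and 11 trophectoderm markers 0 passed with edgeR, DESeq2 or limma-voom. At an unadjusted p under 0.05 edgeR had 3 trophectoderm markers higher and 0 epiblast markers in each comparison against control, where 7.32% of all genes with BHB and 7.33% in low glucose had such a p. All 11 trophectoderm markers had a log2 fold change above 0 in both, with medians of 0.20 with BHB and 0.21 in low glucose. Of the 7 epiblast markers 7 were above 0 with BHB and 6 in low glucose, with medians of 0.23 and 0.16. Both comparisons against control share the 3 control libraries.

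Transcripts of the nuclear members made up a nearly constant share of every library, unlike the mitochondrially encoded ones described below. All 93 members together took 1.77%, 1.87% and 1.80% of the counts with BHB, 1.77%, 1.91% and 1.84% in low glucose, and 1.76%, 1.88% and 1.87% in control. In each medium replicate 1 had the lowest share. On CPM scaled by TMM, a factor that sets aside the most extreme genes, the members summed to 18118 ± 944 CPM with BHB, 18937 ± 665 CPM in low glucose and 17882 ± 1252 CPM in control (SD, n = 3 each). The means differed by less than the spread between replicates of the control medium.

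No member passed the test in any comparison. Of the 93 members, 91 were abundant enough to be tested, all but COX4I2 and COX6A2. edgeR's quasi-likelihood test called 0 of 91 in low glucose against control, where it called 2.03% of all 16469 genes tested, nearly all lower. With BHB against control it called 0 of 91 members and 1.38% of all genes, and with BHB against low glucose 0 of 91 members and 0% of all genes. DESeq2 and limma-voom also called 0 members in each comparison. At an unadjusted p under 0.05 edgeR had 2 members in low glucose against control, 2 with BHB against control and 4 with BHB against low glucose, all lower, against 7.33%, 7.32% and 1.64% of all genes.

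The fits also gave each member an interval for its difference between media, set by the spread of these 9 samples. Each interval is for a single gene. In each comparison 87 of 91 members had a 95% interval that stayed within 2-fold either way, which held for 60.9% of all genes in low glucose against control, 61.2% with BHB against control and 64.1% with BHB against low glucose. The 4 members with wider intervals were all isoforms of complex IV at low levels. Intervals within 1.5-fold were reached by 82, 83 and 83 members in the same order of comparisons, against 41.9%, 40.3% and 44.2% of all genes. The median of the members' mean levels was 118 CPM against 11.3 CPM for all genes tested.

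**Figure D1:**
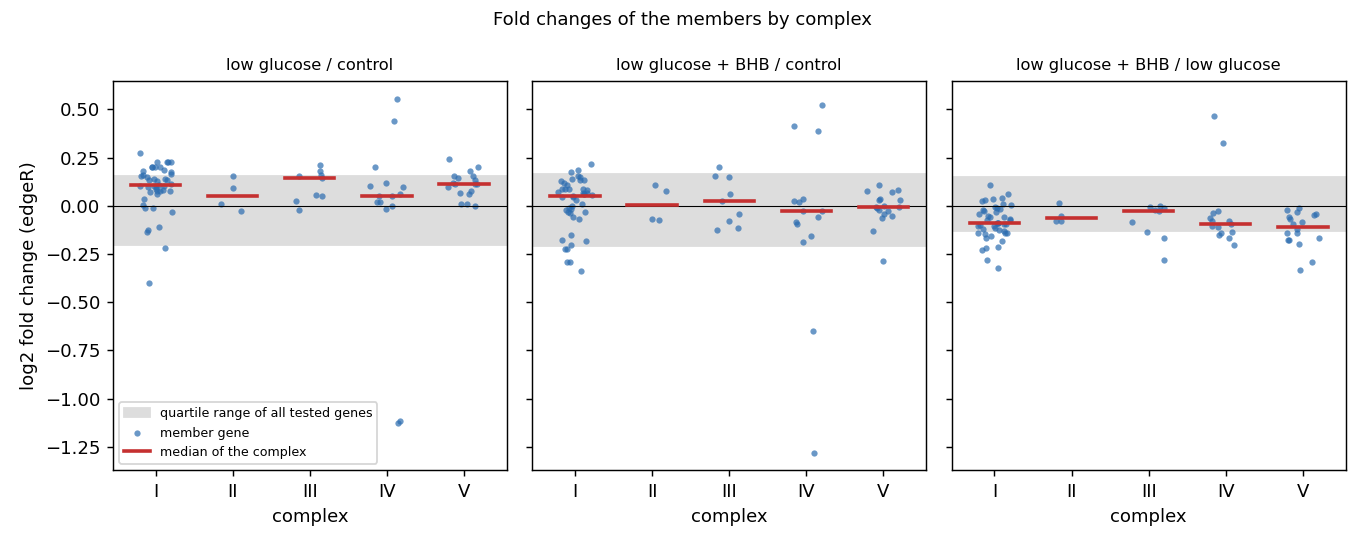
Log2 fold change from edgeR (y axis) of each tested member by complex (x axis) in the 3 comparisons, 1 panel each. Points are genes, red bars are medians of a complex and the grey band holds the range between the quartiles of all 16469 genes tested; most members lie inside or next to the band, and the widest points are isoforms of complex IV.

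The members' fold changes were small, and in both comparisons with the low glucose medium they lay mostly on one side. Both use the low glucose libraries, so their directions are not separate results. In low glucose against control the members' median log2 fold change was 0.10, with 78 of 91 above 0, against a median of 0.02 and 53.2% above 0 over all genes. With BHB against control the median was 0.02, with 47 of 91 above 0, against 0.01 and 51.5%. With BHB against low glucose it was -0.08, with 80 of 91 below 0 and 11 above, against 0.01, with 48.8% below 0 and 51.2% above, over all genes. Scaled by library totals alone, with no TMM factors, these medians were 0.03, -0.02 and -0.04, with 56 members above 0, 39 above 0 and 64 below 0. Under that scaling the medians of all genes were -0.06, -0.03 and 0.05. The 11 tested trophectoderm markers also lay above 0 in both comparisons against control. So did 6 of 7 epiblast markers in low glucose and 7 of 7 with BHB, and 5 of 8 hypoblast markers in each. The part of these markers in the result was not tested.

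Against control, the members' fold changes moved most when 1 control library was left out. With BHB against low glucose, 69 to 82 members were below 0 with any 1 library left out. Control replicate 1 was the lowest of the 9 libraries for 50 of 91 members, or 54.9%, against 19.8% of all genes. BHB replicate 1 was the lowest for 21 members, or 23.1%, against 15.3% of all genes. Relative to the other control libraries, control replicate 1 was at a median of -0.22 on the log2 scale over the members and -0.01 over all genes. Without it, the median in low glucose against control was 0.03, with 59 of 92 tested members above 0, and with BHB against control -0.05, with 22 of 92 above 0. By complex, the medians in low glucose against control were then 0.03 for complex II, 0.06 for III, -0.02 for IV and 0.04 for V, against 0.05, 0.15, 0.05 and 0.11 with it. Its TMM factor was the highest of the libraries, 1.07 against 0.9456 to 1.032 in the others. Its summed trophectoderm, epiblast, hypoblast and striated muscle levels were each the lowest, at 13147, 1288, 1157 and 39.4 CPM. Its cumulus and granulosa sum was the highest, at 1520 CPM, and its germ cell sum, 17.3 CPM, was neither. The part of these in the result was not tested. Low glucose replicates 1, 2 and 3 were the highest of the 9 libraries for 24, 21 and 16 members. These were 26.4%, 23.1% and 17.6% of members, against 13.3%, 6.58% and 13% of all genes. Without BHB replicate 1, 61 of 92 tested members were above 0 with BHB against control.

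**Figure D2:**
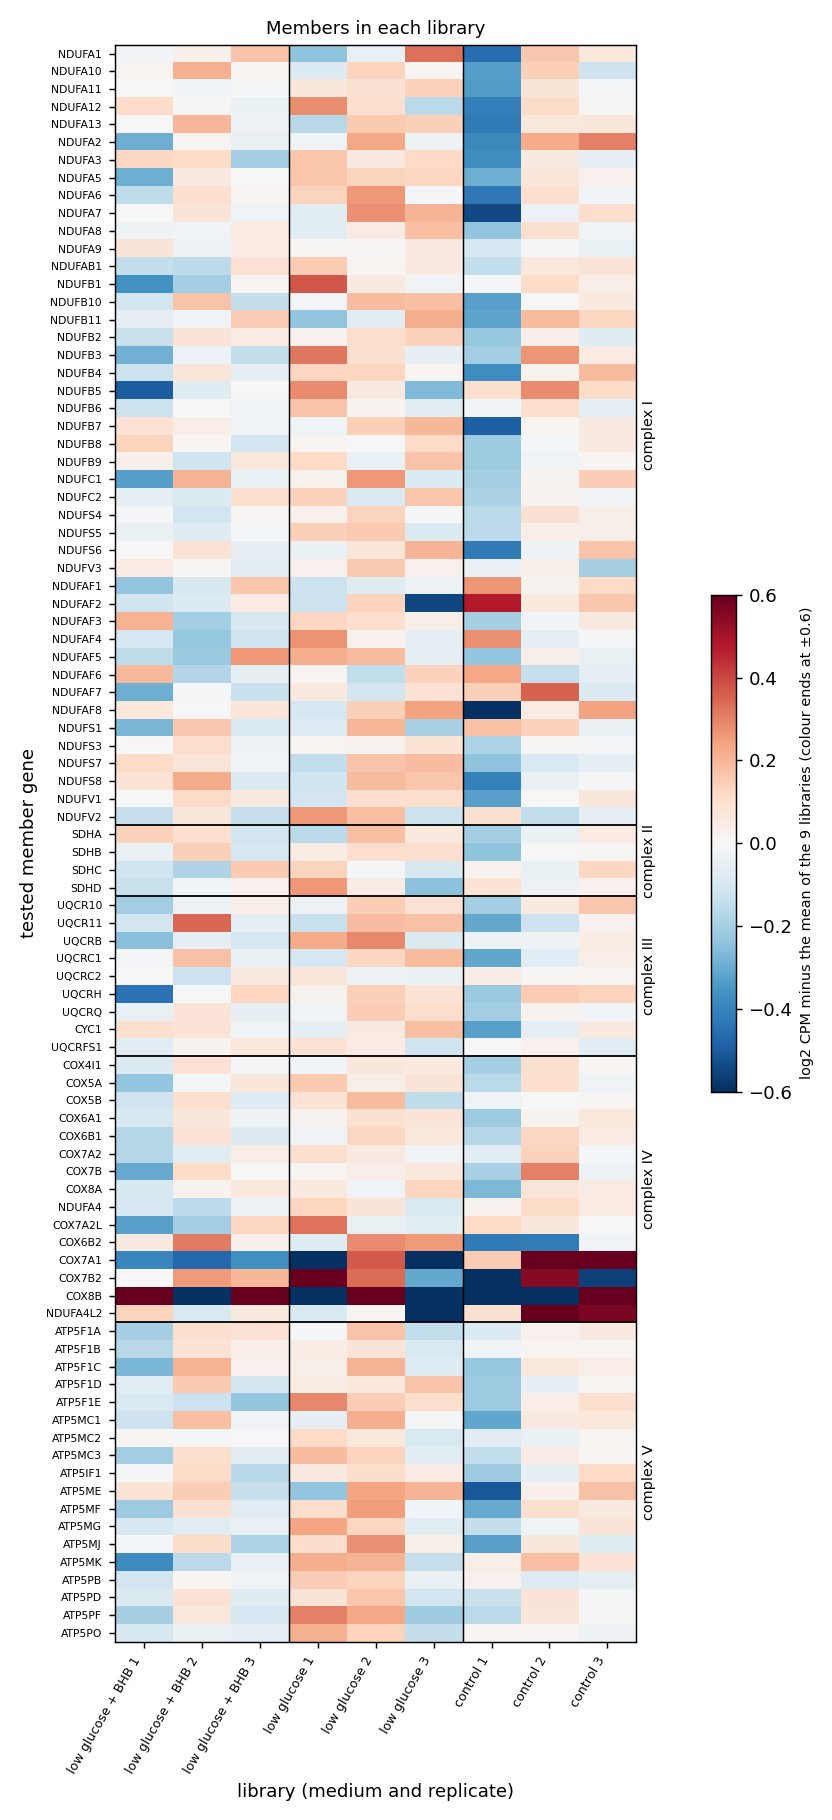
Log2 CPM of the tested members, all but 1 (rows, by complex), in each library (columns, by medium and replicate) minus that gene's mean over the 9 libraries. Colour runs from blue, lower, to red, higher, and ends at 0.6 either way. Control replicate 1 is blue for most rows, but not for several assembly factors of complex I and some subunits. The isoforms of complex IV have the strongest colours.

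Complex I, the NADH dehydrogenase, had 45 members: 7 core subunits that carry electrons, 30 accessory subunits and 8 assembly factors. Their summed level was 4788 ± 131 CPM with BHB, 4974 ± 162 CPM in low glucose and 4604 ± 456 CPM in control (SD, n = 3 each). In control, replicate 1 stood at 4078 CPM and the others at 4878 and 4856 CPM. The median log2 fold change was 0.11 in low glucose against control, 0.05 with BHB against control and -0.09 with BHB against low glucose. Without control replicate 1 it was 0.04 in low glucose against control and -0.04 with BHB against control.

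Among the core subunits, NDUFV1, which binds NADH, had 527, 570 and 545 CPM with BHB, 484, 562 and 565 CPM in low glucose and 420, 524 and 551 CPM in control. All groups overlapped. NDUFS1, an iron-sulfur subunit of the NADH-oxidising arm, had log2 fold changes of -0.11 in low glucose against control, -0.15 with BHB against control and -0.04 with BHB against low glucose. NDUFS7, an iron-sulfur subunit next to the quinone site, had 125, 121 and 113 CPM with BHB, all above the 97.2, 108 and 111 CPM of control (log2 fold change 0.18, adjusted p = 0.894, edgeR), while low glucose, at 104, 129 and 131 CPM, overlapped control.

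The 30 accessory subunits had medians of 0.12 in low glucose against control, 0.06 with BHB against control and -0.09 with BHB against low glucose. Control replicate 1 was the lowest control library for 28 of the 30, and for 39.9% of all genes. NDUFA7 shows what that does to a value. It had 73, 76.9 and 71.6 CPM with BHB, 69.8, 88 and 83.9 CPM in low glucose and 50.1, 71.2 and 78.3 CPM in control. Its log2 fold change in low glucose against control was 0.28, the largest in complex I, and 0.11 without control replicate 1. With BHB against control it was 0.15, and -0.02 without that library.

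NDUFB1, NDUFB3 and NDUFB5, accessory subunits of the membrane arm, were lower with BHB by value but not by the test. NDUFB1 had 40.1, 44.8 and 52.2 CPM with BHB, 66.9, 53.6 and 50.9 CPM in low glucose and 51.4, 55.6 and 53.1 CPM in control. Its log2 fold change was -0.32 ± 0.14 (SE) with BHB against low glucose, with an edgeR adjusted p of 1. A single BHB library, replicate 3, lay above the lowest low glucose library. NDUFB5 had 44.8, 60 and 63.2 CPM with BHB, all below the 67.6, 76.9 and 68.2 CPM of control (log2 fold change -0.34 ± 0.163, adjusted p = 0.722, edgeR), and low glucose, at 77, 65.6 and 52.7 CPM, overlapped both. NDUFB3 had a log2 fold change of -0.28 with BHB against low glucose and overlapped between them, at 30.7, 36.6 and 33.9 CPM with BHB and 46.7, 40.1 and 36.2 CPM in low glucose.

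Assembly factors, which help build complex I and are not part of the finished enzyme, had medians of -0.00 in low glucose against control, -0.10 with BHB against control and -0.08 with BHB against low glucose. Control replicate 1, low for most subunits, was the highest control library for 4 of the 8: NDUFAF1, NDUFAF2, NDUFAF4 and NDUFAF6. Outside the assembly factors it was also the highest for NDUFS1, NDUFV2, SDHD, UQCRC2, COX7A2L, ATP5PB and ATP5PO. Over all genes it was the highest control library for 37.7% and the lowest for 39.9%. It was the lowest for 3 of the 8. Among these was NDUFAF8, at 17 CPM in control replicate 1 against 28.7 and 32.8 CPM in the other controls. NDUFAF2 varied most among members outside the isoforms, by 2.05-fold over the 9 libraries, at 3.46, 3.55 and 3.89 CPM with BHB, 3.44, 4.12 and 2.56 CPM in low glucose and 5.24, 3.92 and 4.21 CPM in control. NDUFAF1 had 28.5, 31.4 and 37.6 CPM with BHB, 30.7, 31.9 and 32.7 CPM in low glucose and 40.3, 34 and 36.4 CPM in control. Low glucose lay wholly below control for NDUFAF1, with a log2 fold change of -0.22 that did not pass the test.

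Complex II, succinate dehydrogenase, is the only complex of the chain with all its subunits encoded in the nucleus, and it also works in the citric acid cycle. Its summed level was 1051 ± 25 CPM with BHB, 1070 ± 51.5 CPM in low glucose and 1025 ± 58.1 CPM in control (SD, n = 3 each). SDHA, the flavoprotein that oxidises succinate, had 589, 575 and 495 CPM with BHB, 479, 607 and 558 CPM in low glucose and 466, 521 and 555 CPM in control, and all groups overlapped. SDHB, the iron-sulfur subunit, had 122, 126 and 127 CPM in low glucose, all above the 99.8, 118 and 119 CPM of control, with 114, 130 and 110 CPM with BHB. Its log2 fold change in low glucose against control was 0.16 (95% interval -0.09 to 0.40, adjusted p = 0.986, edgeR). SDHC and SDHD, the membrane anchors, had log2 fold changes between -0.08 and 0.01 in all 3 comparisons.

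Complex III, the cytochrome bc1 complex, summed to 2319 ± 83.2 CPM with BHB, 2390 ± 108 CPM in low glucose and 2204 ± 184 CPM in control (SD, n = 3 each). UQCRFS1, the Rieske iron-sulfur protein, stayed close over the media, at 284, 302 and 310 CPM with BHB, 315, 308 and 274 CPM in low glucose and 296, 303 and 283 CPM in control. CYC1, cytochrome c1, had 636, 628 and 584 CPM with BHB, 570, 617 and 672 CPM in low glucose and 475, 571 and 617 CPM in control, with the low control value again in replicate 1. UQCRC1, a structural core protein, had log2 fold changes of 0.18 in low glucose against control, 0.15 with BHB against control and -0.03 with BHB against low glucose. UQCRB, a small subunit near the quinone site, was the member of complex III with the smallest unadjusted p, 0.0389 in edgeR's fit of BHB against low glucose, with an adjusted p of 1. It had 76.6, 87.9 and 85 CPM with BHB, all below the 89.1, 89.4 and 94.1 CPM of control, and low glucose had 106, 111 and 85.8 CPM.

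Complex IV, cytochrome c oxidase, has subunits that all tissues use and isoforms typical of certain tissues. Its 17 members summed to 2807 ± 171 CPM with BHB, 2990 ± 65.4 CPM in low glucose and 2871 ± 216 CPM in control (SD, n = 3 each). The 9 general subunits had log2 fold changes between -0.02 and 0.12 in low glucose against control, -0.16 and 0.04 with BHB against control, and -0.14 and -0.04 with BHB against low glucose. COX4I1, the largest nuclear subunit, had 491, 553 and 516 CPM with BHB, 515, 546 and 540 CPM in low glucose and 453, 555 and 525 CPM in control. COX5A had 246, 287 and 303 CPM with BHB, 322, 296 and 305 CPM in low glucose and 258, 309 and 284 CPM in control. The groups of both overlapped. NDUFA4, with 177, 171 and 185 CPM with BHB, lay below its 193, 205 and 197 CPM of control (log2 fold change -0.16), while low glucose spanned both at 208, 201 and 178 CPM. COX7A2L, which joins complexes III and IV into supercomplexes, had 132, 143 and 180 CPM with BHB, 207, 160 and 157 CPM in low glucose and 179, 173 and 165 CPM in control.

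The widest differences among members were in isoforms of complex IV, all at low levels. COX7A1, the isoform of heart and skeletal muscle, had 0.787, 0.742 and 0.80 CPM with BHB, 0.657, 1.35 and 0.577 CPM in low glucose and 1.16, 2.1 and 2.39 CPM in control. Each BHB library lay below every control library, and low glucose replicate 2 lay above the lowest control library. The log2 fold change was -1.28 ± 0.478 (SE) with BHB against control (unadjusted p = 0.0201, adjusted p = 0.453, edgeR) and -1.13 ± 0.475 in low glucose against control (unadjusted p = 0.0352, adjusted p = 0.565, edgeR). Leaving out each library in turn gave -1.53 to -1.05 with BHB and -1.60 to -0.90 in low glucose, never past the threshold. Per count of COX7A2, the general isoform, COX7A1 had 0.221% ± 0.0172 with BHB, 0.227% ± 0.11 in low glucose and 0.502% ± 0.164 in control (SD, n = 3 each, counts not divided by length).

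NDUFA4L2, a relative of NDUFA4 known in human and mouse cells as induced in hypoxia, was also low. It had 4.05, 3.47 and 3.84 CPM with BHB, 3.47, 3.73 and 1 CPM in low glucose and 3.93, 8.35 and 5.48 CPM in control. Low glucose lay below control without overlap, and BHB replicate 1 lay above the lowest control. The log2 fold change was -1.11 ± 0.431 (SE) in low glucose against control (unadjusted p = 0.0237, adjusted p = 0.446, edgeR), the smallest p of any member in that comparison, and -0.65 with BHB against control. With each library left out in turn, the value in low glucose ran from -1.40 to -0.72.

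COX6B2 and COX7B2, isoforms known from testis, had higher values in both low glucose media than in control. COX6B2 had 7.48, 8.96 and 7.36 CPM with BHB, 6.86, 8.78 and 8.62 CPM in low glucose and 5.36, 5.38 and 7.12 CPM in control. All BHB libraries were above every control library and low glucose replicate 1 was below control replicate 3. Its log2 fold change was 0.41 with BHB against control (adjusted p = 0.767, edgeR) and 0.44 in low glucose against control (adjusted p = 0.726, edgeR). COX7B2, at 1.77, 2.12 and 2.04 CPM with BHB, 2.99, 2.24 and 1.42 CPM in low glucose and 0.739, 2.59 and 1.19 CPM in control, overlapped between all media. Its log2 fold change in low glucose against control was 0.56, and 1.20 without control replicate 2, the highest control library.

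The remaining isoforms were at the edge of detection. COX4I2, known from lung and hypoxia, had 13, 6 and 2 counts with BHB, 1, 0 and 5 counts in low glucose and 0, 3 and 0 counts in control. COX6A2, a muscle isoform, had 0 counts in the 3 BHB libraries, which allows up to 0.0158 CPM over the group for counting error alone, 0, 0 and 12 counts in low glucose and 1, 8 and 14 counts in control. COX8B, a muscle isoform that was tested, had 9, 0 and 4 counts with BHB, 0, 12 and 0 counts in low glucose and 0, 0 and 10 counts in control. At these counts no order of the media can be read. Their general partners COX6A1 and COX8A stood at 334 to 414 CPM and 259 to 341 CPM over the 9 libraries.

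**Figure D3:**
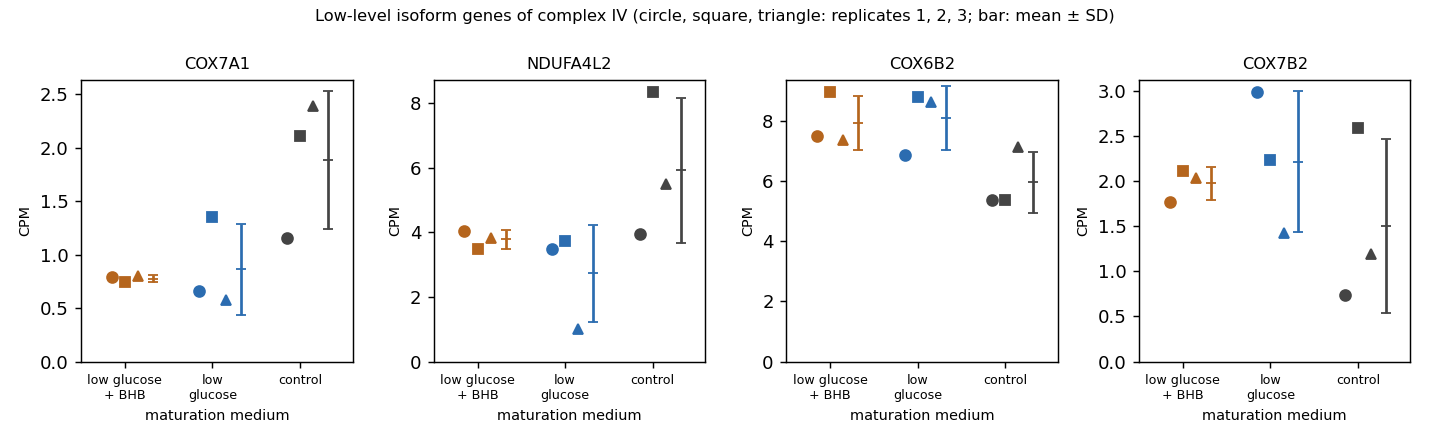
CPM scaled by TMM (y axis, from 0) of 4 isoform genes of complex IV by medium (x axis). Circles, squares and triangles are replicates 1, 2 and 3 and bars are mean ± SD (n = 3); COX7A1 lies at 0.742 to 0.80 CPM with BHB against 1.16 to 2.39 CPM in control, and COX7B2 overlaps between the media.

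Complex V, ATP synthase, took 39.8% of the counts assigned to members, against 26.1% for complex I, 15.8% for complex IV, 12.6% for complex III and 5.72% for complex II. These are shares of reads, not divided by transcript length. ATP synthase summed to 7152 ± 579 CPM with BHB, 7513 ± 566 CPM in low glucose and 7178 ± 366 CPM in control (SD, n = 3 each). All 18 members had a log2 fold change above 0 in low glucose against control, from 0.00 (ATP5MK) to 0.24, against 53.2% of all genes. All 18 were below 0 with BHB against low glucose, from -0.33 to -0.01, against 48.8% of all genes. Both comparisons use the low glucose libraries, so these counts are not separate results. With BHB against control 7 of 18 were above 0.

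In the catalytic head, ATP5F1A and ATP5F1B, the alpha and beta subunits, had the most counts of all members. ATP5F1A had 1546, 1894 and 1884 CPM with BHB, 1767, 1998 and 1603 CPM in low glucose and 1677, 1805 and 1845 CPM in control. ATP5F1B had 1508, 1796 and 1736 CPM with BHB, 1741, 1785 and 1585 CPM in low glucose and 1664, 1707 and 1711 CPM in control. Both overlapped fully, with log2 fold changes between -0.02 and 0.01 in the 3 comparisons and 95% intervals between -0.27 and 0.27.

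ATP5F1E, the epsilon subunit of the central stalk, had the smallest unadjusted p of the members with BHB against low glucose. It had 87.4, 85 and 79.1 CPM with BHB, 113, 103 and 99.9 CPM in low glucose and 79.9, 95.4 and 99.5 CPM in control. Low glucose lay above both other media without overlap, with its lowest library close to the highest control library. The log2 fold change was -0.33 ± 0.117 (SE) with BHB against low glucose, with an unadjusted p of 0.0151 and an adjusted p of 1 in edgeR. ATP5F1D, the delta subunit of the same stalk, also lay above control in low glucose, at 370, 375 and 403 CPM against 308, 346 and 360 CPM, and had 343, 400 and 332 CPM with BHB.

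ATP5MK, a small subunit of the membrane part, had 133, 155 and 168 CPM with BHB, 201, 199 and 157 CPM in low glucose and 177, 196 and 183 CPM in control. BHB lay below control without overlap and low glucose spanned both. The log2 fold change was -0.29 ± 0.129 (SE) with BHB against control (unadjusted p = 0.0461, adjusted p = 0.664, edgeR). ATP5MJ, another small membrane subunit, had 114, 124 and 101 CPM with BHB, 123, 139 and 117 CPM in low glucose and 91.4, 120 and 109 CPM in control, and all groups overlapped. The 5 accessory membrane subunits had medians of 0.16 in low glucose against control, -0.02 with BHB against control and -0.18 with BHB against low glucose. The 4 genes of the peripheral stalk, which holds the head still, had medians of 0.10, -0.03 and -0.13 in these comparisons.

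ATP5MC1, ATP5MC2 and ATP5MC3 encode the same mature c subunit of the rotor ring with different import sequences. Kallisto divides reads among similar transcripts by estimation, so the division between the 3 is uncertain. ATP5MC3 had 380, 473 and 421 CPM with BHB, 499, 482 and 420 CPM in low glucose and 397, 455 and 443 CPM in control. The log2 fold changes of the 3 genes lay between -0.14 and 0.11 in all comparisons. ATP5IF1, which inhibits the synthase when it runs backwards, had 193, 210 and 173 CPM with BHB, 201, 209 and 201 CPM in low glucose and 167, 188 and 211 CPM in control. Its counts per count of ATP5F1B were 11.5% ± 1.43 with BHB, 12% ± 0.598 in low glucose and 11.1% ± 1.15 in control (SD, n = 3 each).

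Counts of members whose libraries did not overlap between media lay above the share over all genes in some cases and near or below it in others. In low glucose against control 7 of 91 members lay wholly above, 7.69% against 4.31% of all genes: ATP5F1D, ATP5F1E, NDUFA3, NDUFA5, NDUFA9, NDUFS3 and SDHB. In the same comparison 2 lay wholly below, NDUFA4L2 and NDUFAF1, 2.2% against 8.85%. With BHB against control COX6B2 and NDUFS7 lay wholly above, 2.2% against 4.77%. In that comparison 8 lay wholly below, 8.79% against 8.56%: ATP5MK, ATP5PO, COX7A1, NDUFA4, NDUFAF2, NDUFAF4, NDUFB5 and UQCRB. With BHB against low glucose 0 lay wholly above, against 2.96% of all genes. Below were 4, namely ATP5F1E, NDUFA11, NDUFA5 and NDUFAF4, 4.4% against 2.54%.

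The 13 mitochondrially encoded subunits of the same complexes varied far more between libraries than their nuclear partners. Their summed level was 32618, 22859 and 62761 CPM with BHB, 83881, 57771 and 44022 CPM in low glucose and 46040, 53032 and 47417 CPM in control. The control libraries lay close together, while BHB and low glucose libraries reached both lower and higher. Counts of these genes per count of the nuclear members were 1.9, 1.2 and 3.45 with BHB, 4.47, 2.94 and 2.4 in low glucose and 2.8, 2.85 and 2.55 in control. Over the 9 libraries, a mitochondrially encoded gene's highest level was 2.74 to 4.76 times its lowest. For the 86 nuclear members other than isoforms this ratio was at most 2.05, with 85 under 2. In a comparison added after the data were seen, the median ratio was 1.31 over the 46 members at or above the median member level and 1.39 over all 1692 genes at or above it.

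None of the 13 mitochondrially encoded genes passed the test in any comparison with edgeR, DESeq2 or limma-voom. All 13 had their lowest level in BHB replicate 2 and their highest in low glucose replicate 1. Counts of them below are therefore not separate results. With BHB against low glucose their median log2 fold change was -0.72. In edgeR's fit 8 of 13 had an unadjusted p under 0.05, all lower, against 1.64% of all genes. That median was -0.37 without low glucose replicate 1, with 0 genes at an unadjusted p under 0.05, and -0.42 without BHB replicate 2, also with 0. Without BHB replicate 3 it was -1.17, with 13 of 13 at an unadjusted p under 0.05. In low glucose against control the median was 0.31, against 0.04 without low glucose replicate 1 and 0.54 without low glucose replicate 3. With BHB against control it was -0.35, against -0.06 without BHB replicate 2 and -0.85 without BHB replicate 3, with 12 of 13 at an unadjusted p under 0.05 in that last case. None passed the test in any of these fits. CYTB, cytochrome b of complex III, had 2281, 1238 and 3203 CPM with BHB, 5770, 3631 and 2505 CPM in low glucose and 2962, 3233 and 2402 CPM in control. The libraries were enriched for polyadenylated RNA, and how far that step sets these levels was not tested.

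**Figure D4:**
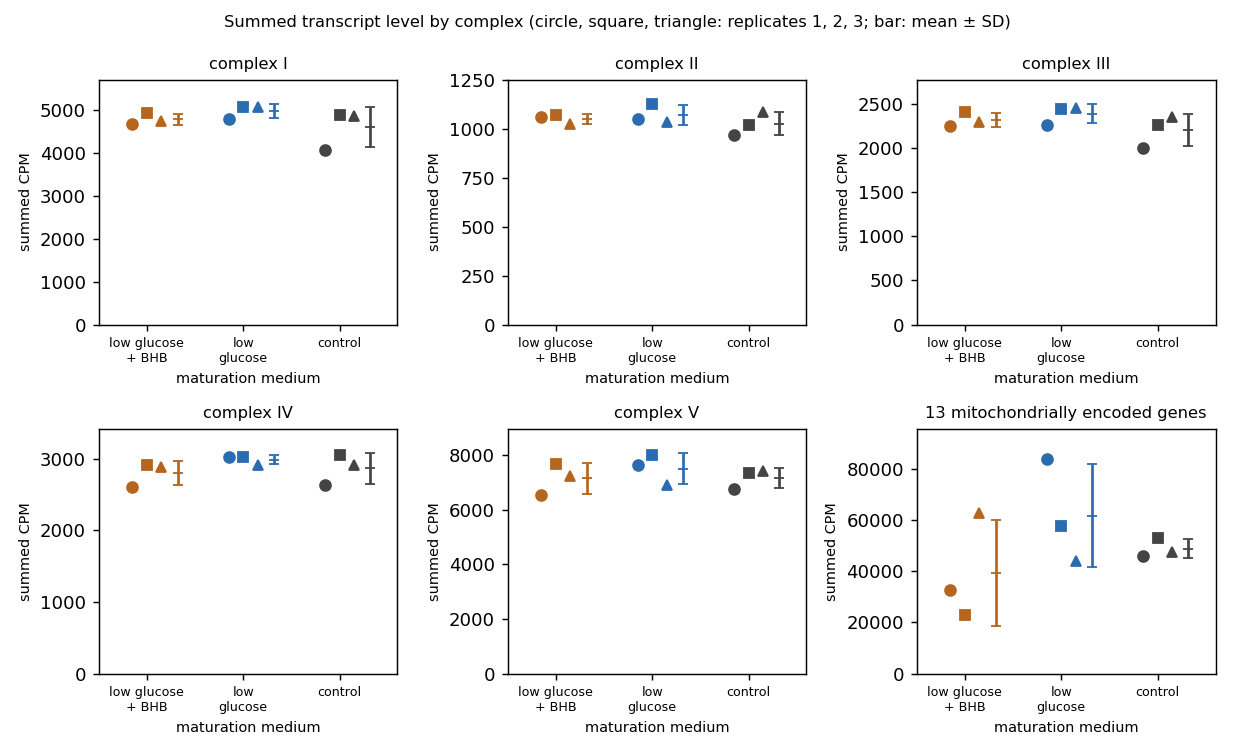
Summed CPM scaled by TMM (y axis, from 0) of each complex's nuclear genes and of the 13 mitochondrially encoded genes, by maturation medium (x axis). Circles, squares and triangles are replicates 1, 2 and 3 and bars are mean ± SD (n = 3); nuclear sums stay close, for complex V between 6529 and 8010 CPM, while the mitochondrially encoded sum runs from 22859 to 83881 CPM.

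Genes that build and serve the complexes were read from lists of assembly factors and carriers. Of the assembly factors beyond the NDUFAF genes, 12 for complex I, 4 for complex II, 6 for complex III, 27 for complex IV and 6 for complex V were tested (HIGD1A of complex IV was listed under 2 identifiers with the same counts), and edgeR, DESeq2 and limma-voom each called 0 in every comparison. At an unadjusted p under 0.05 edgeR had COX15 with BHB against low glucose and DMAC2L in low glucose against control, and 0 others. DMAC2L, a factor of ATP synthase, had 8.09, 6.18 and 4.44 CPM with BHB, 6.98, 7.35 and 6.65 CPM in low glucose and 4.23, 5.05 and 5.07 CPM in control. Low glucose lay above control without overlap (log2 fold change 0.55, adjusted p = 0.635, edgeR). COX15, which makes heme A for complex IV, had 16.2, 17.4 and 20.3 CPM with BHB, 14.6, 14.9 and 12.9 CPM in low glucose and 13.3, 16.2 and 14.5 CPM in control, with a log2 fold change of 0.34 and an adjusted p of 1 (edgeR) with BHB against low glucose. TACO1, which activates translation of mitochondrial COX1, had a log2 fold change of -0.37 in low glucose against control (adjusted p = 0.808, edgeR).

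Among 16 electron carriers and quinone enzymes and 6 exchange and uncoupling genes, edgeR, DESeq2 and limma-voom each called 0 in every comparison, and 0 had an unadjusted p under 0.05 with edgeR. Cytochrome c, CYCS, had 365, 341 and 406 CPM with BHB, 470, 366 and 359 CPM in low glucose and 396, 464 and 374 CPM in control. PDSS1, which makes the tail of coenzyme Q, had a log2 fold change of 0.32 in low glucose against control (adjusted p = 0.726, edgeR). The ADP/ATP exchanger SLC25A6 had 2316, 2602 and 2041 CPM with BHB, 2222, 2235 and 2514 CPM in low glucose and 1767, 1939 and 2403 CPM in control. The groups of CYCS and SLC25A6 overlapped.

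Of 15 regulators of mitochondrial genes, HIF1A alone passed the test, lower in both low glucose media. HIF1A, the oxygen-regulated transcription factor subunit, had 34.6, 55.2 and 50.7 CPM with BHB, 46.1, 42.7 and 36.9 CPM in low glucose and 78, 107 and 94.1 CPM in control. No library of either low glucose medium reached the lowest control library. The log2 fold change was -0.99 with BHB against control (adjusted p = 0.018, edgeR) and -1.15 ± 0.18 (SE) in low glucose against control (adjusted p = 0.00505, edgeR). In low glucose it passed under each of 18 alternatives, with adjusted p of 2.61e-07 to 0.0308. With BHB it passed under 15 of 18 and reached an adjusted p of 0.0819 when a library was left out, being lost without BHB replicate 3, control replicate 2 or control replicate 3. In the same comparisons the 22 tested cumulus and granulosa genes had median log2 fold changes of -0.94 with BHB and -1.13 in low glucose, and their part in the HIF1A result was not tested.

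The other listed regulators include factors known to drive transcription of respiratory chain genes. TFAM, which packages and transcribes mitochondrial DNA, had 46.8, 64.9 and 61.1 CPM with BHB, 55.5, 60.7 and 54.7 CPM in low glucose and 52.4, 60.7 and 51.9 CPM in control. NRF1, nuclear respiratory factor, had log2 fold changes of 0.22 with BHB against control and 0.00 in low glucose against control. ESRRA, the estrogen-related receptor that partners PGC-1 coactivators, had 0.15 and 0.16, and the coactivator gene PPRC1 also had 0.15 and 0.16. PPARGC1A, the coactivator PGC-1 alpha, was barely detected, at 0.131, 0.256 and 0.255 CPM with BHB, 0.351, 0.845 and 0.237 CPM in low glucose and 1.26, 0.516 and 0.327 CPM in control. Its BHB libraries lay below every control library (log2 fold change -1.70, adjusted p = 0.719, edgeR).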

How the data were processed

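Libraries came from polyadenylated RNA by a NEBNext Ultra II protocol, per the labels' protocols. The deposited table holds the authors' estimated counts per gene, of which 22.5% are not whole numbers, and 37.6% for the members. The tools kallisto, fastp and DESeq2 and the build bosTau9 are named, per the submitters' processing notes. Which tool did what, with which annotation and version, was not given in the sources used here. Near-identical copies can share reads. Columns were matched to samples by their descriptions.

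Estimated counts were rounded and fitted with edgeR 4.0.16 (R 4.3.3): filterByExpr (minimum count 10, minimum total 15) kept 16469 of 22127 genes, TMM scaled the libraries, and 1 quasi-likelihood fit of all 9 libraries gave the 3 comparisons. Tests were two-sided, adjusted by Benjamini-Hochberg over all genes, with calls under 0.05. The common biological coefficient of variation was 0.322. Levels are TMM-scaled CPM. Fold changes are log2 and intervals are at 95%; counting floors are 3 counts and cover counting error only. The steps were tested on simulated data. Replicates of a medium correlated at 0.951 to 0.976 in log2 CPM, and none agreed within sampling noise.

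The members and the lists of related genes and cell markers were chosen with earlier results of these data known. Genes named were those past the threshold, the 5 of smallest p and the 3 of largest and of smallest fold change in each comparison, the 3 of highest and of lowest level and of largest spread, and representatives of each role. The other members and related genes given with values were named after their values were seen. Between the low glucose media the deviations of same-numbered replicates correlated at 0.115, 0.243 and 0.102, which pairs them by number from the values, with no label that says so. The alternatives tried were RLE factors, mitochondrially encoded genes left out of scaling, other filters, the replicate number as a block, a fit of the 6 libraries of 1 comparison, limma-voom (limma 3.58.1), DESeq2 1.42.0, and leaving out each library. Scaling by library totals, leaving PTGS2 out of a sum and comparing genes at or above the median member level were added after the data were seen. Figures were drawn with matplotlib 3.10.9. 1 gene is left out of the text and of the plot by library.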

Additional observations from a re-analysis of the deposited data

How the results depend on the processing

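The count of members past the threshold was 0 in each comparison and direction under all 18 alternatives, with edgeR, DESeq2 or limma-voom. Over the settings other than leaving out a library, the median log2 fold change of the members was 0.03 to 0.11 in low glucose against control, -0.02 to 0.03 with BHB against control and -0.09 to -0.04 with BHB against low glucose. With 1 library left out it was 0.03 to 0.15, -0.05 to 0.06 and -0.12 to -0.06. The smallest adjusted p of any member was 0.199 (NDUFA4L2, low glucose against control, DESeq2). With the replicate block, which pairs the low glucose media, the medians were 0.11, 0.02 and -0.08 and no call on members changed. Against control, same-numbered replicates correlated at 0.0417 to 0.144, with replicate 1 at 0.131 in low glucose and 0.144 with BHB. Other pairs ran from -0.105 to 0.0643 in low glucose and from -0.0996 to 0.0692 with BHB. These ranges overlap, so whether such replicates share more than a number with control was not settled. The block moved the genes called lower over all genes to 404 in low glucose, from 333, and to 274 with BHB, from 227. DESeq2 called 548 lower and 9 higher genes in low glucose against control, 409 lower and 9 higher with BHB against control, and 1 lower and 1 higher with BHB against low glucose. With 1 library left out the lower counts ran from 194 to 391 in low glucose and from 90 to 256 with BHB. In low glucose, leaving out control replicate 3 gave 194 and leaving out low glucose replicate 2 gave 197. With BHB they were 90 and 121 without control replicates 3 and 1 and 93 and 132 without BHB replicates 3 and 1. Of 2085 fold changes of named members under alternatives, 127 had the other sign, none of them past the threshold. They fell in 55 of the 117 pairs of a named member and a comparison. Without low glucose replicate 2, COX7A1 stood at 0.33 with BHB against low glucose, against -0.15 with it. The median of complex III with BHB against low glucose was -0.13 without BHB replicate 2, against -0.03 with it. The cause of these moves was not tested. Scaled by library totals, the median of complex II in low glucose against control was -0.03, against 0.05, and the median of all genes -0.06, against 0.02. Levels divided by length were not run, because no length was at hand. Among the members with few counts, COX4I2, COX6A2 and COX8B, depth limits what can be read.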

Other observations

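In a comparison added after the data were seen, the median within-medium coefficient of variation of CPM was 8.5% over the 46 members at or above the median member level and 10.7% over all 1692 genes at or above it. Over all 91 tested members it was under 10% for 45 and above the median of all genes, 20.1%, for 4.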
